A study of Mus musculus with 2 samples.

Results

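The enzymes that write, copy and oxidise cytosine methylation were examined in 2 RNA-seq libraries from cultured mouse B cell precursors. The genes were chosen by name, as the DNA methyltransferase family (*Dnmt1*, *Dnmt3a*, *Dnmt3b* and *Dnmt3l*), the Tet family (*Tet1*, *Tet2* and *Tet3*), the maintenance factor *Uhrf1* and the methyl-CpG binding protein *Mbd2*. All 9 were found, with 26 protein-coding RefSeq transcripts, among 20250 genes and 26968 protein-coding transcripts. One library came from *Ebf1* -/- pre-pro-B cells, which lack the transcription factor that starts the B cell program and were derived from female fetal liver. The other came from *Rag2* -/- pro-B cells, which cannot rearrange their antigen receptor genes and were derived from male adult bone marrow. Both cultures had a C57BL/6 background and were grown on OP-9 stromal cells with IL-7 (5 ng/mL), and the pre-pro-B culture also received Scf and Flt3l (each at 10 ng/mL). Cell stage therefore cannot be told apart from genotype, sex, age, tissue or cytokines. There was 1 library per cell type, so no difference has a replicate check and no test was made.

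In mammals, Dnmt1 copies methylation onto the new DNA strand after replication, and Uhrf1 brings it to half-methylated CpG sites. Dnmt3a and Dnmt3b, helped by the catalytically inactive Dnmt3l, place methyl groups on unmethylated DNA, while the Tet enzymes oxidise methylated cytosine to hydroxymethylcytosine and beyond. Mbd2 binds methylated CpG and is a subunit of the NuRD chromatin remodelling and deacetylase complex, and in blood formation *Dnmt3a* and *Tet2* are known for their control of stem cell self-renewal.

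Values are FPKM, fragment counts scaled to transcript length and to library size, and were summed over the transcripts of a gene, so levels can be compared between genes. Differences are given as log2 of pro-B over pre-pro-B after adding a pseudocount of 1 FPKM, which understates the change of low genes, and folds are ratios without it. Intervals are the 95% confidence limits that Cuffdiff attached to each transcript, and they come from its model rather than from replicates. The labels give a nominal depth of 90 M single-end reads of 97 bases per library, at which 3 fragments, taken as the most that a value of 0 allows, equal an FPKM of 0.00237 for the 14082-base *Tet1* transcript and of 0.0180 for the 1850-base *Mbd2* transcript. These floors cover counting error only. Where a pair of values is given, the pre-pro-B value comes first.

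The libraries carried the markers of their labels. All 6 B lineage markers were higher in pro-B cells (median log2 difference 7.08), and all 3 progenitor markers were lower. *Ebf1* itself had an FPKM of 64.0 in the library of its null cells against 273 in pro-B cells, and *Rag2* had 22.9 in the library of its null cells against 34.5 in pre-pro-B cells. Neither targeted gene was at 0, and an FPKM over a whole transcript does not show which exons the reads came from. The summed FPKM of 8 stromal markers was 8.28 in the pre-pro-B and 8.61 in the pro-B library, with *Postn* and *Dcn* at 0 in both, but the markers differed in opposite directions. *Thy1* had 5.95 and 0, while 5 markers were higher in pro-B cells, 2 of them at least 2-fold, with *Col1a2* at 0.707 and 2.82 and *Col6a1* at 1.17 and 4.05. Some markers of other blood lineages differed between the libraries. The summed FPKM of the 4 myeloid markers found was 41.3 in the pre-pro-B and 0.122 in the pro-B library. That of 4 T lineage markers was 39.7 and 3.10. Each pre-pro-B sum was mostly a single gene, *Mpo* at 35.7 and *Lck* at 38.0. In each list 2 markers reached an FPKM of 1, the others being *Lyz2* (5.39 in pre-pro-B cells) and *Cd4* (1.15). The rest stayed below 1 in both libraries. The part of cells of other lineages in the values below was not tested.

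Of the 9 genes, *Uhrf1* and *Mbd2* were higher at the pro-B stage by 2-fold or more, *Dnmt3b* and *Tet1* were lower by 2-fold or more, and 5 stayed within 2-fold on the pseudocount scale. Over all genes, 6.34% were that much higher in pro-B cells and 9.94% that much lower. Among the 10528 genes that reached an FPKM of 1 in a library, as 8 of the 9 did, these shares were 12.2% and 19.1%. The median log2 difference of the 9 genes was -0.50, against 0 over all genes and -0.14 over the genes that reached an FPKM of 1. With so few genes, these counts describe the 9 and do not set them apart from the background. In bulk RNA, fewer cells with a transcript and less of it per cell cannot be told apart.

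**Figure D1:**
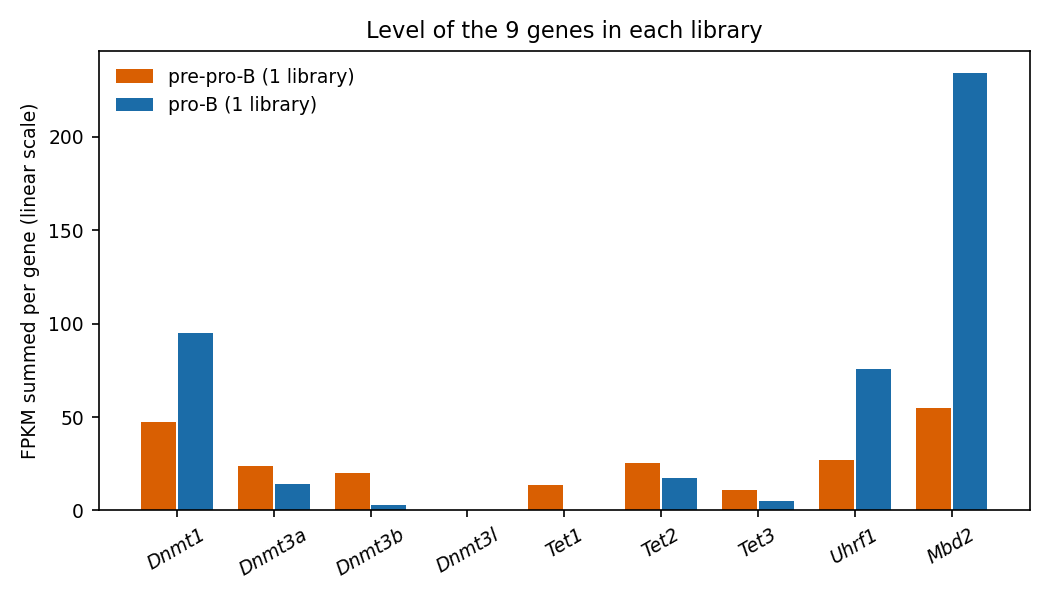
The bars give the summed FPKM (linear scale) of each of the 9 genes in the pre-pro-B and the pro-B library, with 1 library per bar and no error bar. *Mbd2* was the most abundant in both libraries (54.9 and 234), and the bars of *Dnmt3l* in both libraries and of *Tet1* in pro-B cells are too low to see.

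In pre-pro-B cells, the levels ran from *Mbd2* through *Dnmt1*, *Uhrf1*, *Tet2*, *Dnmt3a*, *Dnmt3b*, *Tet1* and *Tet3* down to *Dnmt3l*. The first 5 places were the same in pro-B cells, followed there by *Tet3*, *Dnmt3b*, *Tet1* and *Dnmt3l*. Neighbours in these orders mostly could not be told apart, since the limits, summed over a gene's transcripts as a rough guide, overlapped for 7 of 8 neighbouring pairs in each library. The exceptions were *Tet3* and *Dnmt3l* at the pre-pro-B stage and *Dnmt3b* and *Tet1* at the pro-B stage.

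The maintenance factors were among the more abundant of all genes and were higher in pro-B cells. *Dnmt1* (mm9 chr9:20711650-20757317, minus strand) had a summed FPKM of 47.5 in the pre-pro-B and 95.2 in the pro-B library. The pro-B level was 2.00-fold higher, a log2 difference of 0.99 that fell just short of the 2-fold limit once the pseudocount was added. The gene stood at percentile 92.5 of all genes at the pre-pro-B stage and 96.8 at the pro-B stage. All 4 of its transcripts were higher in pro-B cells and all 4 had overlapping intervals. The most abundant, NM_001199431, had an FPKM of 27.5 (0.690 to 62.7) and 43.9 (0.278 to 117). NM_010066 had 9.72 (0 to 31.2) and 29.3 (0.00442 to 87.6), and its share of the gene's FPKM was 20.5% in the pre-pro-B and 30.8% in the pro-B library. NM_001199432 had 7.88 and 17.0, and NM_001199433 had 2.46 and 4.92. These transcripts share a locus and are of similar length, so the division of reads among them rests on Cuffdiff's model.

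*Uhrf1* (mm9 chr17:56442744-56462909, plus strand), whose protein recognises half-methylated CpG and recruits Dnmt1, had a summed FPKM of 27.2 in the pre-pro-B and 75.6 in the pro-B library. This was a 2.78-fold higher level in pro-B cells (log2 difference 1.44). Most of it came from NM_001111079, at 23.0 (0.845 to 46.2) and 58.2 (2.93 to 121), whose intervals overlapped. NM_010931 differed more in proportion, at 0.977 (0 to 5.56) and 13.2 (0 to 44.3), and NM_001111080 differed less, at 3.16 and 3.32. NM_001111078 was low in both, at 0.119 and 0.790. *Uhrf1* was the member with the most near copies in the genome. Of 140 stretches of 97 bases along its longest GENCODE transcript, 69 (49.3%) had a match elsewhere in mm9 with at most 2 mismatches. The corresponding share was 5.92% for *Dnmt3b* and under 1% for *Tet2* and *Tet3*, and it was 0 for the other 5 genes. The authors' counting could have split *Uhrf1* reads with those copies, and the size of that effect was not tested.

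For each gene of this pair, the promoter window that holds an E2F-type motif is shown, because both genes were higher in pro-B cells. The motif is the binding sequence of factors that drive genes of DNA replication. The other windows of *Dnmt1* (12 and 2 CpG) and of *Uhrf1* (12 CpG) hold no such motif. The other *Dnmt1* windows lie upstream of the window shown, so its start is the most downstream of those listed. The windows come from RefSeq on GRCm38.p6 and run from 250 bases before to 50 bases after the start, 5′ to 3′ on the gene's strand. The Dnmt1 window is chr9:20952574-20952873 (minus strand) and the Uhrf1 window chr17:56304063-56304362 (plus strand), and capitals mark the motif on either strand.
Dnmt1: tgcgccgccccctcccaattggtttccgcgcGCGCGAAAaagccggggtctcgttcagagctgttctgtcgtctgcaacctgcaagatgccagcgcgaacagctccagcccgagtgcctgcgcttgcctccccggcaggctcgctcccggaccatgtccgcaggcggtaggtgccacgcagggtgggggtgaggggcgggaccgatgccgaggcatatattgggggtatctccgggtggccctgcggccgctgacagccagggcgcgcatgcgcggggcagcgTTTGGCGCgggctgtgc
Uhrf1: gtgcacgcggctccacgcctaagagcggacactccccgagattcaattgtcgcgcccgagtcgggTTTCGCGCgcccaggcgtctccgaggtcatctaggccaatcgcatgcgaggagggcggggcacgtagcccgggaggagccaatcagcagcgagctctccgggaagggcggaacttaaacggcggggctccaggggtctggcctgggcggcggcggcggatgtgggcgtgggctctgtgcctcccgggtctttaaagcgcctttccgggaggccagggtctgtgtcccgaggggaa
The *Dnmt1* window shown holds the motif at positions -219 and 34 from its own start, and the *Uhrf1* window shown at position -185. Both windows hold 33 CpG dinucleotides, more than 91.4% of all 32851 windows, whose median was 7. The letters searched on both strands were TTTCCCGC, TTTGGCGC, TTTCGCGC and TTTGCCGC, chosen after expression values were known. They were found in 2.26% of all windows and, among 15 windows of the 8 genes that had one, only in these 2. *Mbd2* had no window. Each string contains a CpG, and the share over all windows was not matched for CpG content. It is therefore no fair background for these CpG-rich windows. An Ebf1-type palindrome, TCCC and GGGA spaced by any pair of bases, was found in 0.904% of all windows and in 0 of the 15. So few windows cannot be set apart from that share. A match is a string of letters and not a measured binding site.

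The de novo enzymes were lower in pro-B cells. *Dnmt3a* (mm9 chr12:3806007-3914443, plus strand) had a summed FPKM of 23.6 in the pre-pro-B and 14.2 in the pro-B library, a 1.66-fold lower level (log2 difference -0.69) that stayed within the 2-fold limit. The largest contribution was from NM_153743, the short form Dnmt3a2 that starts at an internal promoter, at 17.7 (0.858 to 37.9) and 9.44 (0.123 to 20.5). Its intervals overlapped.

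In Cuffdiff's division of reads, the longer *Dnmt3a* transcripts changed places between the libraries. NM_001271753 had an FPKM of 5.88 (0.00334 to 16.7) in the pre-pro-B library, compared with 0.00261 (0 to 0.00354) in pro-B cells. NM_007872 had 0.00596 (0 to 0.0100) and 4.75 (0.0177 to 12.2), and its intervals did not overlap, as was the case for 3.02% of the 18877 protein-coding transcripts above 0 in a library. The intervals of NM_001271753 overlapped by a narrow margin. The 2 transcripts are 9689 and 9735 bases long, a difference of 46 bases, and each low value corresponds to a few fragments at the nominal depth. Their sum was 5.89 in the pre-pro-B and 4.75 in the pro-B library, or 24.97% and 33.5% of the gene. The difference within the pair was thus far larger than the difference in their sum. The division of reads between these 2 transcripts rests on Cuffdiff's model, and whether the forms themselves changed was not tested.

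*Dnmt3b* (mm9 chr2:153475186-153513466, plus strand) had a summed FPKM of 19.9 in the pre-pro-B and 2.95 in the pro-B library. The level was 6.76-fold lower in pro-B cells (log2 difference -2.41). Of its 9 transcripts, 3 were above 0 in the pre-pro-B library, and 1 carried nearly all of the pro-B FPKM. NM_001271747 had 9.38 (0.0924 to 22.5) and 2.95 (0.0499 to 6.64), with overlapping intervals. NM_010068 had 5.29 (0 to 15.2) at the pre-pro-B stage and was listed at 0 at the pro-B stage. NM_001122997 had 5.26 (0 to 15.3) and was likewise listed at 0 in pro-B cells. The lower limits of the last pair in pre-pro-B cells were 0, so none of the differences had separate intervals. NM_001271746 had 0 and 0.000181, under the floor, and the other 5 transcripts were at 0 in both libraries.

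The *Dnmt3b* transcripts differ by exons that are skipped or kept, and the coding ones are shown because the abundant transcripts differ in them. Splicing out the exon pair near the 3′ end gives proteins that lack part of the catalytic domain. The sequences are from mm9, 5′ to 3′ on the plus strand, and the numbers are those of the 24 exons of the longest GENCODE transcript. Exon 11 is chr2:153496585-153496644 (60 bp), exon 22 is chr2:153509344-153509413 (70 bp) and exon 23 is chr2:153510095-153510213 (119 bp).
Exon 11: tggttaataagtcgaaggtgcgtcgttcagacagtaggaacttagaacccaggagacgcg
Exon 22: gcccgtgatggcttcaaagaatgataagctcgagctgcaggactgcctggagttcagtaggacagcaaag
Exon 23: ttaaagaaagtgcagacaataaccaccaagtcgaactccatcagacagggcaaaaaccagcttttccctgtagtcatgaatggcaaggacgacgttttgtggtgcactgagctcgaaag
Exons 22 and 23 together hold 189 bp, or 63 codons, and exon 11 holds 20 codons, so skipping either keeps the reading frame. The deposited table gives a length for each transcript but no exons. Each length matched exactly 1 combination of these exons and a noncoding exon, that of NM_001122997 only with 3 further bases allowed, and the assignments below rest on length alone. NM_001271747 (3960 bases) and NM_010068 (4075 bases) have lengths that lack exons 11, 22 and 23, and NM_001122997 (4212 bases) has, apart from those 3 bases, the length that keeps them. The 4 transcripts with lengths that lack the catalytic pair had a summed FPKM of 14.7 in the pre-pro-B and 2.95 in the pro-B library, or 73.6% and 100% of the gene. The 5 with lengths that keep it had 5.26 and 0, or 26.4% and 0%. By this division, which also rests on Cuffdiff's model, most *Dnmt3b* FPKM was assigned to the form without the catalytic pair in both libraries. The limits of the 3 transcripts above 0 in pre-pro-B cells overlapped, so their shares there are not settled. The full-length form was given a value in pre-pro-B cells alone, with limits that reach 0.

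**Figure D2:**
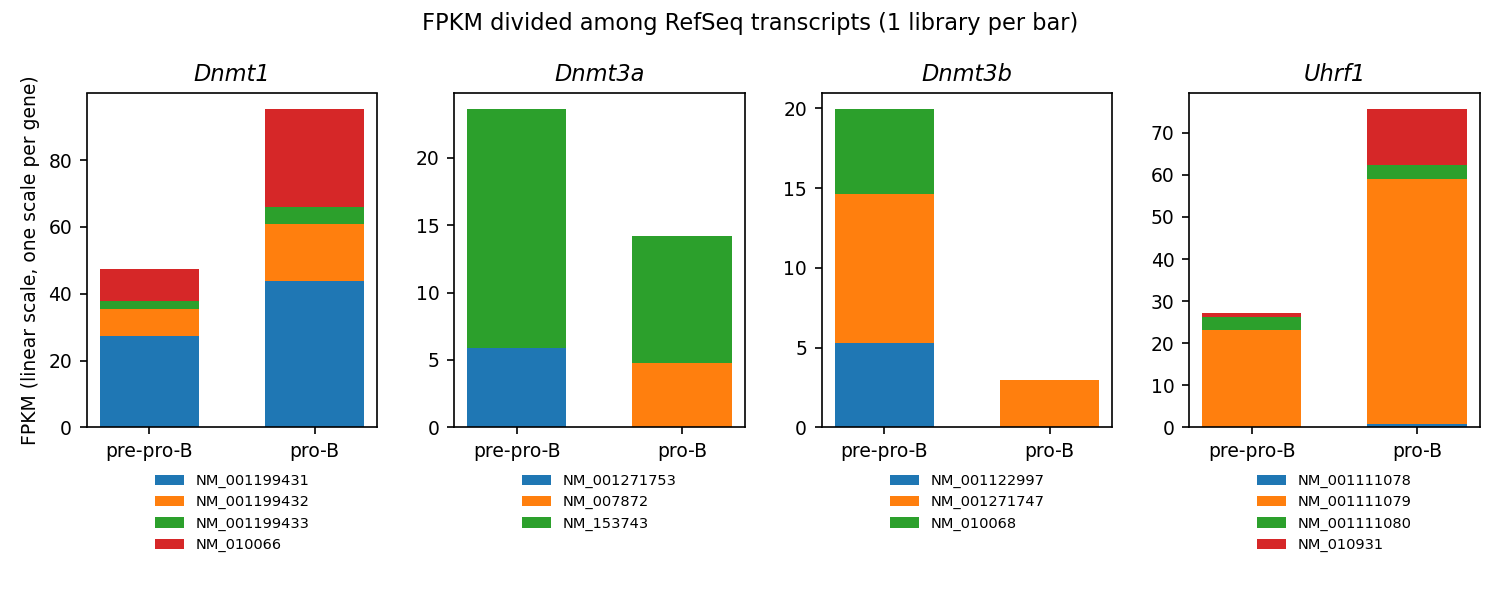
Stacked bars give the FPKM (linear scale, a separate scale for each gene) of the RefSeq transcripts of *Dnmt1*, *Dnmt3a*, *Dnmt3b* and *Uhrf1* in each library, 1 library per bar. In *Dnmt3a* the bottom segment changes from NM_001271753 (5.88) to NM_007872 (4.75), and in *Dnmt3b* 3 segments in pre-pro-B cells become 1 in pro-B cells. The division into segments rests on Cuffdiff's model.

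*Dnmt3l* (mm9 chr10:77504692-77526367, plus strand), a cofactor known mainly from germ cells and early embryos, was at or under the floor in both libraries. NM_001081695 had an FPKM of 0.0151 in the pre-pro-B library, under its floor of 0.0184, and was listed at 0 in pro-B cells. NM_019448 was listed at 0 in both. No fold is given for this gene. Its locus lies across from *Aire* on the opposite strand, and the libraries were strand-specific.

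Added together, *Dnmt1*, *Dnmt3a* and *Dnmt3b* had an FPKM of 91.0 in the pre-pro-B and 112 in the pro-B library. The makeup of the sum differed more than the sum itself. *Dnmt1* made up 52.2% of it at the pre-pro-B stage and 84.7% at the pro-B stage. *Dnmt3a* made up 25.9% and 12.6%, and *Dnmt3b* made up 21.9% and 2.62%. By these values, *Dnmt1* was the largest part in both libraries, and more so in pro-B cells. The summed limits in pro-B cells, 0.283 to 290 for *Dnmt1* and 0.140 to 32.7 for *Dnmt3a*, overlapped, so the shares are not settled.

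All 3 Tet genes were lower in pro-B cells, by very different amounts. *Tet1* (mm9 chr10:62267318-62361866, minus strand), which carries a CXXC zinc finger that binds CpG-rich DNA, had an FPKM of 13.8 (1.36 to 26.3) in the pre-pro-B library, compared with 0.00124 (0 to 0.00878) in pro-B cells. Its intervals did not overlap, and their nearest limits were 155-fold apart. At the nominal depth the pro-B value is worth 1.57 fragments, under the floor of 3, so *Tet1* was not detectable in pro-B cells at this depth. The log2 difference was -3.88 on the pseudocount scale.

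*Tet2* (mm9 chr3:133126643-133207354, minus strand), which lacks that zinc finger, was the most abundant Tet gene in both libraries. Its FPKM was 25.2 (0.882 to 55.2) in the pre-pro-B and 17.6 (0.732 to 38.6) in the pro-B library, a 1.44-fold lower level (log2 difference -0.50) with overlapping intervals. *Tet3* (mm9 chr6:83312367-83391672, minus strand), known for its role in the fertilised egg, had 11.0 (0.326 to 22.8) and 5.12 (0.370 to 11.2). Its level was 2.15-fold lower in pro-B cells, and the log2 difference of -0.97 fell just inside the limit with the pseudocount, again with overlapping intervals.

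The summed Tet FPKM was 50.0 in the pre-pro-B and 22.7 in the pro-B library. *Tet1* made up 27.6% of the sum at the pre-pro-B stage and 0.00547% at the pro-B stage. *Tet2* made up 50.4% and 77.4%, and *Tet3* 22.0% and 22.6%. The Tet RNA of pro-B cells was thus nearly all *Tet2* and *Tet3*.

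*Mbd2* (mm9 chr18:70727843-70785785, plus strand) was the most abundant of the 9 genes in both libraries and had the largest difference in the direction of pro-B cells. Its FPKM was 54.9 (2.29 to 118) in the pre-pro-B and 234 (19.6 to 490) in the pro-B library. The level was 4.27-fold higher in pro-B cells (log2 difference 2.07), yet the intervals overlapped. It stood at percentile 93.9 and 99.1 of all genes.

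Of the 26 transcripts, 6 were higher at the pro-B stage by 2-fold or more, 5 were lower by as much and 15 stayed within 2-fold. Over all protein-coding transcripts, these shares were 6.73% and 10.2%. Of the 20 transcripts above 0 in a library, 2 had separate intervals, those of *Tet1* and of NM_007872 of *Dnmt3a*. The intervals of the other 18 overlapped, *Mbd2*, *Uhrf1* and *Dnmt3b* included. Over all 18877 protein-coding transcripts above 0 in a library, 3.02% had separate intervals. The value of NM_007872 also rests on Cuffdiff's division of reads between forms of similar length.

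**Figure D3:**
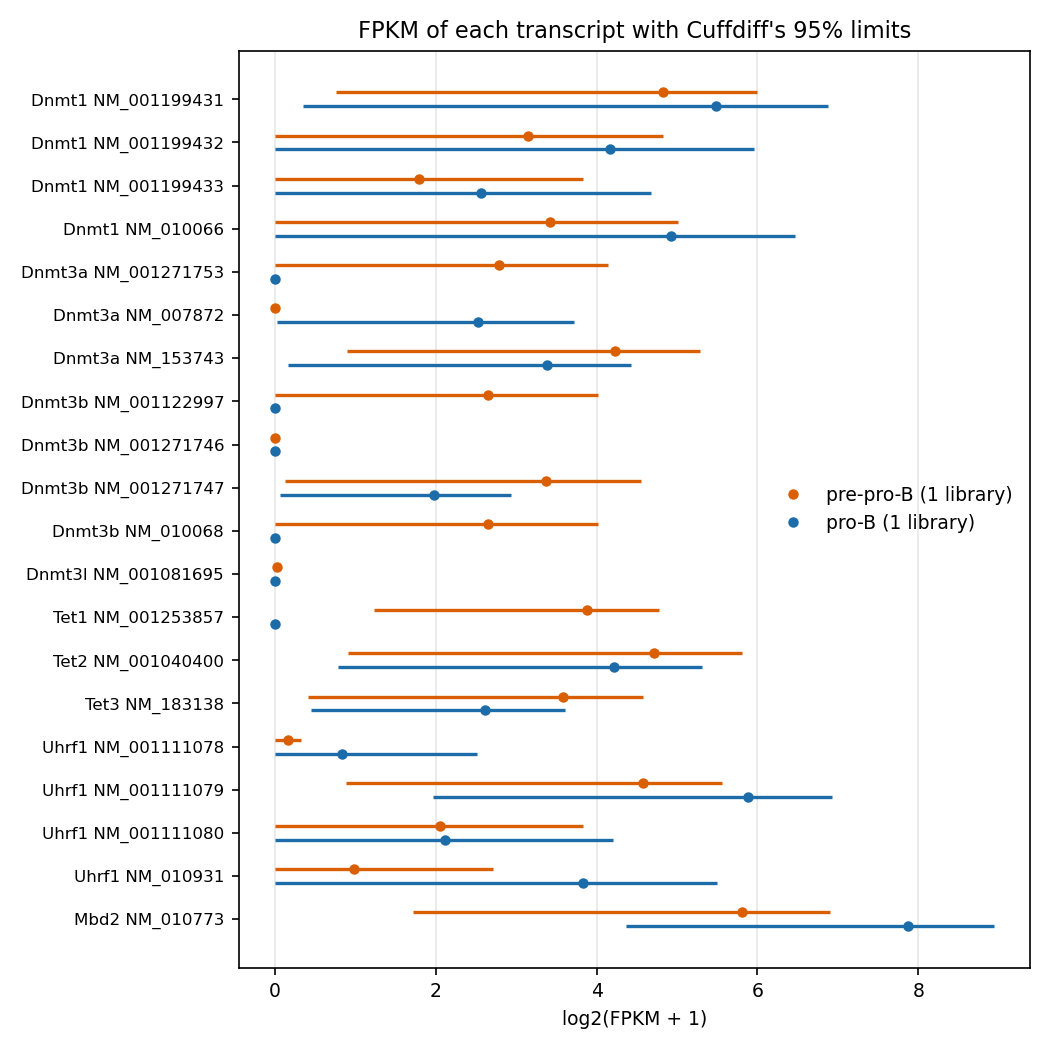
Points give log2(FPKM + 1) of the 20 transcripts above 0 in a library, and lines give Cuffdiff's 95% limits, for 1 pre-pro-B and 1 pro-B library. The lines of both libraries overlap for 18 transcripts and are separate for *Tet1* and for NM_007872 of *Dnmt3a*. Over all protein-coding transcripts above 0 in a library, 3.02% had separate limits.

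Genes that work with these enzymes were counted by the same 2-fold rule. Of 65 genes in 5 lists, 10 were higher at the pro-B stage, 10 were lower and 45 stayed within 2-fold, with a median log2 difference of 0. Cuffdiff's limits for the libraries overlapped for every transcript of these partner genes, those named below included. The shares over all genes are the 6.34% higher and 9.94% lower given above, or 12.2% and 19.1% among genes that reached an FPKM of 1, and the counts of single lists are too small to be read against them. The lists had no common direction. Among 13 partners of maintenance methylation, 3 were higher and 1 was lower (median 0.10). *Hdac1*, a histone deacetylase that binds Dnmt1, had an FPKM of 11.2 in the pre-pro-B and 1.53 in the pro-B library. *Pcna*, the sliding clamp that holds Dnmt1 at the replication fork, had 59.2 and 206. *Hells*, a remodeller needed for methylation of repeats, had 30.3 and 97.6. The *Hdac1* and *Pcna* values are uncertain, since 82.1% and 75.4% of their 97-base stretches had near copies elsewhere in mm9.

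Of 9 other methyl-CpG binders, 1 was higher, 1 was lower and 7 stayed within 2-fold (median -0.09). *Mbd4*, a glycosylase that removes thymine left by deaminated methylcytosine, had an FPKM of 10.4 in the pre-pro-B and 32.8 in the pro-B library. *Zbtb38*, a zinc finger protein, had 12.2 and 2.50, and *Mbd6* had 6.15 and 4.11. *Mbd3*, the close relative of *Mbd2* that takes its place in other NuRD complexes, had 10.9 and 11.5 and was chosen for mention after its values were seen. Of 13 subunits of NuRD, 1 was higher and 4 were lower (median -0.28). These included *Gatad2a*, at 7.36 and 1.17, and *Mta3*, at 42.1 and 11.2, both lower in pro-B cells. *Hdac1*, whose value is uncertain because of its near copies, was lower too, while *Mbd2* was higher. The other subunits past 2-fold, chosen for mention after their values were seen, went in opposite directions. *Chd4* had 126 and 45.8, and *Chd3* had 15.4 and 38.0.

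Of 21 Tet cofactors and repair factors of oxidised bases, 5 were higher, 3 were lower and 13 stayed within 2-fold (median 0). Glycosylases that remove damaged or oxidised bases differed in both directions. *Neil1* had an FPKM of 2.13 (0 to 7.19) in the pre-pro-B and 35.1 (1.42 to 84.6) in the pro-B library. *Neil3* had 7.69 (0.123 to 17.2) and 83.4 (12.0 to 157). *Gadd45a*, a stress-induced factor linked to repair-based demethylation, had 5.18 and 31.9. *Tdg*, the glycosylase that excises the bases made by Tet oxidation, had 7.11 and 0.632 (log2 difference -2.31) and was chosen for mention after its values were seen. Its value is uncertain, since 84.7% of its stretches had near copies elsewhere. Of 12 genes of methyl donor supply, 0 were higher, 2 were lower and 10 stayed within 2-fold (median 0.07). *Ahcyl2*, a relative of the enzyme that clears the product of methylation reactions, had 20.01 and 1.73, and *Mtrr*, which reactivates methionine synthase, had 10.8 and 4.45. *Ahcy* itself had 1.54 and 0.566, but 81.6% of its stretches had near copies elsewhere.

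**Figure D4:**
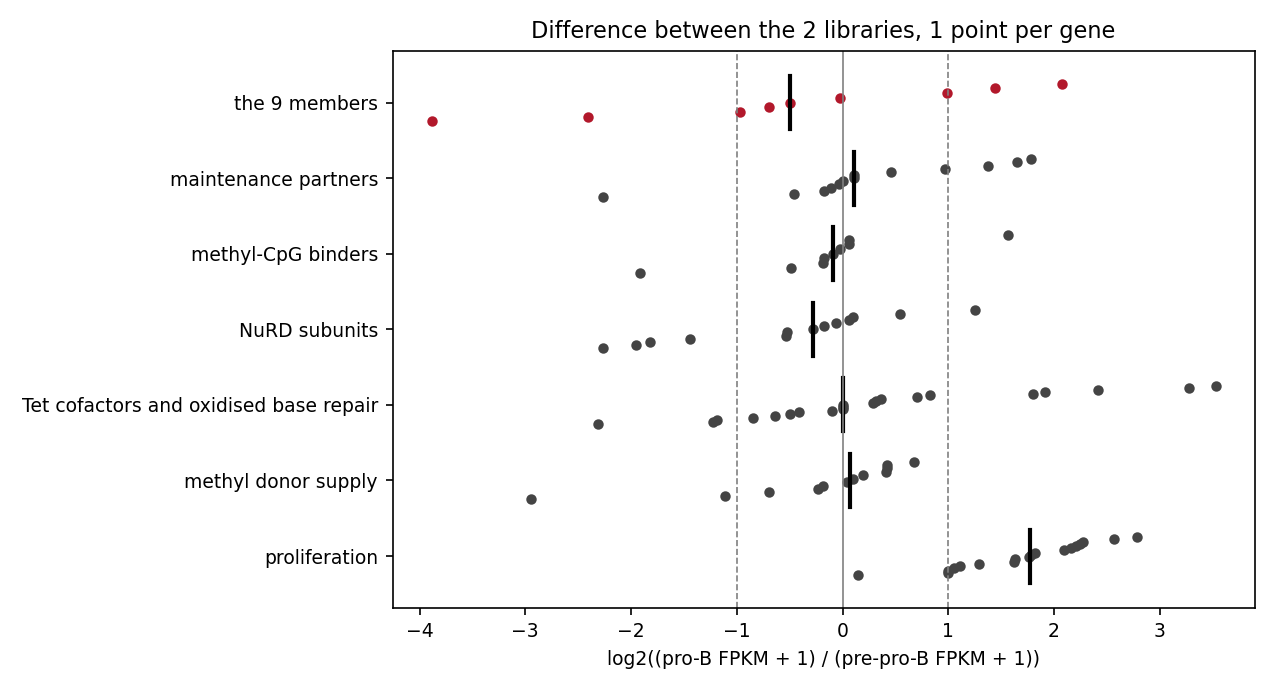
Each point is the log2((pro-B FPKM + 1)/(pre-pro-B FPKM + 1)) of 1 gene, for the 9 genes, the 5 lists of partners and a proliferation list, with thick bars at the medians and dashed lines at 2-fold. The 9 genes spread from -3.88 to 2.07, and the medians of the 5 partner lists lie between -0.28 and 0.10.

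Proliferation genes differed in 1 direction, which is given beside *Dnmt1* and *Uhrf1* because their RNAs are known to be higher in dividing cells. All 18 genes of the list were higher in pro-B cells, 15 of them at least 2-fold, with log2 differences from 0.15 to 2.78 and a median of 1.77. Cuffdiff's limits overlapped for every transcript of these genes. Near copies make some values uncertain, with shares of 75.4% for *Pcna*, 70.8% for *Ccnb1*, 47.8% for *Mcm7* and 46.3% for *Tk1*. *Mki67*, a marker of dividing cells, had an FPKM of 81.1 in the pre-pro-B and 349 in the pro-B library, and *Mcm2*, a subunit of the replicative helicase, had 26.9 and 59.3. The log2 differences of *Dnmt1* (0.99) and *Uhrf1* (1.44) lay inside the range of that list and below its median. That of *Mbd2* (2.07) lay inside the range and above the median. The part of proliferation in these differences was not tested, and with 1 library per cell type it cannot be told apart from stage, genotype or tissue.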

How the data were processed

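RNA from both cell types was depleted of ribosomal RNA, made into strand-specific libraries and sequenced as single-end reads. The authors aligned the reads to mm9 with TopHat (1.5 in the submitters' processing notes) and deposited the FPKM of each RefSeq transcript with 95% confidence limits from Cuffdiff 2.1.1, with multi-read and bias correction, no scaling between the libraries and a dispersion that ignored cell type. A further deposited table, of the authors' log2 fold changes, p-values and q-values, was not used, and neither were its 2 per-sample columns.

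RefSeq accessions (26580, of which 26173 matched) were named from a GRCm38 gene table, and FPKM were summed per gene over protein-coding transcripts. A gene or transcript was counted as higher or lower when log2 of the ratio, with a pseudocount of 1 FPKM, reached 1 in size. With 1 library per cell type, no test was made. Gene coordinates are from GENCODE on mm9. Near copies were sought with minimap2 2.31, for stretches of 97 bases taken every 25 bases along the longest GENCODE transcript of a gene. The tables were made with Python 3.11.15, numpy 2.4.6 and pandas 2.3.3, and the figures with matplotlib 3.10.9. The counting was tested on simulated data.

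Genes named were the 9 members with their transcripts, the 3 genes with the largest log2 difference in size in each list of partners or germline genes and any gene of those lists at 0 in 1 library, and 3 of the proliferation genes. Further genes were named for their near copies, or where marked as chosen after their values were seen. The members and lists were chosen with earlier results of these data known. Alternatives were other pseudocounts, a filter at an FPKM of 1, TPM and median-ratio scaling, and the most abundant transcript of each gene.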

Additional observations from a re-analysis of the deposited data

How the results depend on the processing

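No paired analysis was possible because each cell type had 1 library. None of the 9 genes reversed direction under the alternatives tried. With features below an FPKM of 1 in either library left out, the genes lower at 2-fold in the pro-B library went from 2 to 1, since *Tet1* was removed, the transcripts past 2-fold from 11 to 5, and the transcripts with separate intervals from 2 to 0. Ranking by the most abundant transcript kept 4 of 9 genes at their pre-pro-B rank and 7 at their pro-B rank. *Dnmt1* passed the 2-fold limit with a pseudocount of 0.1 or none (log2 difference 1.00 in both) and with median-ratio scaling (1.08). It stayed further inside the limit with TPM (0.87) and with the most abundant transcript (0.66). *Tet3* passed the limit with a pseudocount of 0.1 (-1.09), with none (-1.11) and with TPM (-1.08), but not with median-ratio scaling (-0.90). Before the pseudocount, TPM scaling shifted every log2 ratio by -0.12 and median-ratio scaling by 0.09, and low genes shifted less with it. Under TPM the median of the methyl donor list changed sign, from 0.07 to -0.04, and that of the maintenance partners went from 0.10 to 0, so partner list medians near 0 have no settled sign. The FPKM carry no counts, and the fragments behind low values rest on a nominal depth.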

Other observations

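Germline genes known to be silenced by promoter methylation in somatic cells stayed low in both libraries. Of 14 such genes, 8 were listed at 0 in both libraries and 1, *Sycp1*, reached an FPKM of 1. Of all 20250 genes, 10528 reached an FPKM of 1 in a library, and 36.1% were at 0 in the pro-B library, whatever their pre-pro-B value. The share of all genes at 0 in both libraries was not counted, so the 8 have no like background. Among the 8, *Hormad1* and *Rpl10l* are uncertain, since 50.9% and 62.2% of their stretches had near copies elsewhere. *Sycp1*, a component of the meiotic synaptonemal complex, was listed at 0 (0 to 0) in pre-pro-B cells and had an FPKM of 2.55 (0.0115 to 7.74) in pro-B cells. *Brdt*, a testis bromodomain protein, had 0.435 and 0.947. *Ddx4*, a germ cell helicase, had 0.316 and 0, *Sycp3* had 0.140 and 0, *Stra8* had 0.0311 and 0, and *Taf7l* had 0 and 0.0139. Methylation itself was not measured here.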
